A study of Mus musculus with 8 samples.

Results

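The matrix metalloproteinases (Mmp), the tissue inhibitors of metalloproteinases (Timp) and the ADAMTS proteases (Adamts) were taken from the gene table by symbol. Of 24639 gene entries 46 matched, made up of 23 Mmp, 4 Timp and 19 Adamts genes on 17 chromosomes. They were counted in mesangial cells (MMC), the pericyte-like cells of the kidney glomerulus, cultured from C57BL/6J mice that were either wild type (WT) or homozygous for a germline deletion at the miR-379 locus made with CRISPR-Cas9 nickase (miR-379KO). Each genotype was sequenced as total RNA and as RNA pulled down by beads against AGO2 (AGO2-IP), which gave 4 groups of 2 replicates, A and B, and 8 libraries. AGO2 belongs to the Argonaute proteins, which hold microRNAs together with the RNAs they pair with. All cultures were grown from sieved glomeruli in serum-containing RPMI medium, were used at low passage and received no treatment, and the sources used here do not give the age of the mice. A and B are described as independent, without saying whether this means separate cultures or separate mice, and the p-values below measure the spread between these samples only. The deletion was not restricted to a cell type.

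Matrix proteases cut the proteins and proteoglycans that surround cells. Mmp enzymes are zinc proteases that are made as inactive precursors, and most Adamts enzymes are secreted zinc proteases that cut proteoglycans such as aggrecan and versican or trim procollagens. Timp proteins bind the active sites of these enzymes and block them. In the glomerulus mesangial cells make much of the matrix between the capillaries, and its build-up is a known feature of diabetic kidney disease.

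The mature miR-379-5p and the sites in the members that match its seed are printed because pairing of a 3′-UTR with the seed is the best known way by which a microRNA binds an RNA. In the microRNA, from RefSeq on GRCm38.p6 at chr12:109709065-109709085 (plus strand), capitals mark the seed, bases 2 to 8. In the sites, which lie in the 3′-UTR of the named gene and are read 5′ to 3′ on its own strand, capitals mark the match GTCTACC. They lie at chr9:30901819-30901840 (minus strand) for Adamts15, chr5:129607815-129607836 (plus) for Mmp17, chr2:155816054-155816075 (plus) for Mmp24 and chr11:83441962-83441983 (minus) for Mmp28.
miR-379-5p: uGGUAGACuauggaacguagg
Adamts15: ttaactaatgcacaGTCTACCt
Mmp17: taagaaaggcttctGTCTACCc
Mmp24: ccagaaccctctctGTCTACCc
Mmp28: ccctagatagaattGTCTACCc

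Of the 46 members, 4 (8.70%) held the match in the annotated 3′-UTR, compared to 777 of 19140 entries with a 3′-UTR (4.06%). The members had longer 3′-UTRs, with a median of 1597 bases against 828. No Timp held it. The match is a description of the sequence and does not show binding.

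Total RNA libraries held 17168230 to 22660743 gene counts and AGO2-IP libraries 5587611 to 17095021, of which the 45S ribosomal RNA precursor Rn45s took 72.2 to 80.5% in AGO2-IP. Members made up 0.349 to 0.512% of counts outside Rn45s and Lars2 in total RNA and in AGO2-IP 0.508 and 0.571% (WT) and 0.446 and 0.350% (miR-379KO). The targeted microRNA had 0 counts in every total RNA library and, in AGO2-IP, 0 and 4 (WT) and 1 and 0 (miR-379KO), too few to check the labels. Of 10 mesangial markers 9 were in the table and 7 or 8 passed 1 CPM, counts per 1000000 scaled counts of a library, in every library of a group. Podocyte markers summed to 240.3 and 628 CPM in WT against 329 and 570.2 in miR-379KO total RNA, tubule markers to 1.61 to 26.7 in WT and 7.75 to 13.1 in miR-379KO, and endothelial and leukocyte markers to at most 2.09. In such bulk samples fewer cells of a type and less RNA per cell cannot be told apart.

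In total RNA a pair of inhibitors and a pair of proteases stood highest. Timp1, Timp2, Mmp2 and Mmp14 were at similar levels, about an order of magnitude above most of the others. Levels between genes are given as RPKM, which is CPM per kilobase of exon. At least 10 CPM were reached in 20 members, 8 Mmp, 3 Timp and 9 Adamts, and 28 members had enough counts to be tested. Of the other 18 members, 13 had some counts and 5 had 0 in all 4 libraries, namely Timp4, Mmp1a, Mmp1b, Mmp20 and Mmp21. A count of 0 allows up to 3 counts per library, or 0.130 to 0.179 CPM, counting error only.

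The inhibitors came first. Timp1 (chrX:20870166-20874737, plus strand), an inhibitor of most secreted Mmp enzymes, was at 299 and 367 RPKM in WT (A and B) against 473 and 410.4 in miR-379KO (A and B). Timp1 was thus higher in both miR-379KO libraries, and the groups did not overlap. Timp2 (chr11:118301061-118355411, minus strand), which inhibits Mmp enzymes and with MMP14 also helps to activate MMP2, was at 379.6 and 165 RPKM in WT against 332 and 279 in miR-379KO. The WT replicates of Timp2 lay on both sides of the miR-379KO values. Timp3 (chr10:86300412-86349505, plus strand), a matrix-bound inhibitor that also blocks ADAM and ADAMTS enzymes, was at 59.9 and 110.0 RPKM in WT against 63.6 and 85.0 in miR-379KO, so that both miR-379KO values lay between the WT values. The order of the inhibitors was not the same in each library, as the ratio of Timp1 to Timp2 was 0.788 in WT A and 2.23, 1.43 and 1.47 in the others.

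Mmp2 and Mmp14 carried most of the Mmp level, with 82.7 to 90.0% of the summed Mmp RPKM in each total RNA library. Mmp2 (chr8:92827290-92853421, plus strand), a secreted gelatinase that cuts type IV collagen, was at 302 and 107 RPKM in WT against 225 and 228 in miR-379KO. Mmp14 (chr14:54431598-54442456, plus strand), the membrane-anchored protease that activates pro-MMP2, was at 258 and 184 RPKM in WT against 186 and 194 in miR-379KO. For both genes WT A was the highest library and WT B the lowest, with the miR-379KO pair close together. Mmp23 (chr4:155650655-155654539, minus strand) was at 24.4 and 24.8 RPKM in WT against 24.0 and 37.2 in miR-379KO. Mmp11 (chr10:75923221-75932502, minus strand), the secreted stromelysin 3, was at 15.2 and 15.8 RPKM in WT against 11.3 and 16.5 in miR-379KO. In both the 2 WT values were nearly equal and miR-379KO B was the highest. Mmp17, a glycolipid-anchored member, was at 8.87 and 6.12 RPKM in WT against 9.60 and 7.90 in miR-379KO. The membrane-anchored Mmp15 and Mmp16 and the secreted Mmp19 ranged from 1.49 to 5.16 RPKM across the libraries. Mmp15 was at 3.58 and 5.16 RPKM in WT against 4.82 and 3.30 in miR-379KO, and Mmp16 at 4.03 and 1.49 in WT against 2.89 and 3.08 in miR-379KO. Mmp19 was at 3.62 and 3.77 RPKM in WT against 3.76 and 2.11 in miR-379KO. Groups overlapped for each of these 8 genes.

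Adamts1 alone made up 57.5 and 58.3% of the summed Adamts level in WT against 58.0 and 46.6% in miR-379KO. Adamts1 (chr16:85793827-85803113, minus strand), which cuts versican and aggrecan, was at 72.9 and 54.1 RPKM in WT against 47.1 and 28.1 in miR-379KO. Adamts5, a main aggrecanase, was at 15.8 and 14.6 RPKM in WT against 12.1 and 11.8 in miR-379KO. Adamts12 (chr15:11064773-11349232, plus strand), a protease of cartilage oligomeric matrix protein, was at 9.82 and 6.64 RPKM in WT against 6.25 and 4.21 in miR-379KO. Both WT values lay above both miR-379KO values for these 3 genes. Adamts6 was at 8.85 and 3.92 RPKM in WT against 4.09 and 5.08 in miR-379KO. Adamts4 (chr1:171250129-171262267, plus strand), the other main aggrecanase, was at 5.49 and 2.16 RPKM in WT against 2.51 and 1.61 in miR-379KO. In both WT A stood above the other 3 libraries. The procollagen N-proteinases Adamts2 and Adamts14 were low. Adamts2 was at 1.90 and 4.03 RPKM in WT against 1.43 and 2.26 in miR-379KO, and Adamts14 at 3.46 and 2.27 in WT against 1.86 and 2.36 in miR-379KO. Adamts10, which is linked to fibrillin microfibrils, was at 3.89 and 2.33 RPKM in WT against 2.94 and 2.56 in miR-379KO. Adamts9, which cuts versican and aggrecan, was at 2.03 and 0.883 RPKM in WT against 1.15 and 0.758 in miR-379KO. Groups overlapped for these last 6 genes.

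**Figure D1:**
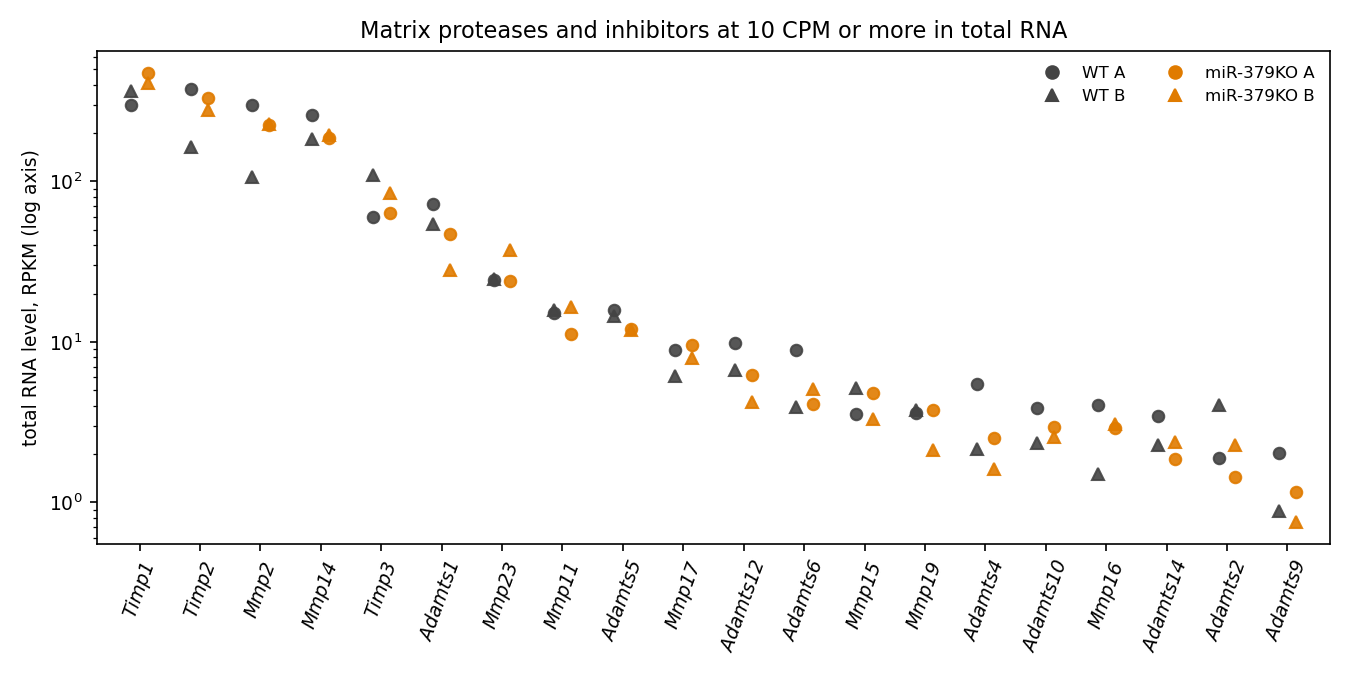
Total RNA level of the 20 members at 10 CPM or more, in RPKM on a log axis, with 1 point per library. Timp1, Timp2, Mmp2 and Mmp14 lie above 100 RPKM in every library, Adamts1 lies at 28.1 to 72.9, and the WT replicates of Timp2 and Mmp2 are farther apart than the genotypes' means.

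To ask whether loss of miR-379 went with a change in the level of these genes, the genotypes were compared in total RNA. No member passed the test. Of 28 members tested, 0 passed edgeR's quasi-likelihood test with a Benjamini-Hochberg adjusted p-value under 0.05, as did 0 of 12321 genes (0%), and DESeq2 gave 0 as well. At an unadjusted p-value under 0.05 there was 1 member with edgeR (0.739% of all genes) and 2 with DESeq2. The study's cutoff of over 1.5-fold with an unadjusted p-value under 0.05 was met by the same 1 member, against 0.682% of all genes.

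That member was Adamts16, present at a very low level, with 19 and 57 counts in WT against 17 and 4 in miR-379KO. Its log2 fold change was −2.08 ± 0.78 (SE, edgeR unadjusted p-value 0.0361, adjusted p-value 0.9997). For Timp1, the highest inhibitor, the log2 fold change was 0.41 ± 0.24, with a 95% interval of −0.18 to 0.999. The intervals of Timp2 (−0.86 to 1.20), Mmp2 (−1.01 to 1.31) and Mmp14 (−0.90 to 0.46) were also wide. The intervals of Timp2 and Mmp2 held a 1.5-fold change in both directions. That of Timp1 held a 1.5-fold rise but not such a fall, and that of Mmp14 a fall but not a rise. Timp3 lay at −0.19 ± 0.35. Replicates were far apart, with 16 of the 28 members differing by over 1.5-fold between the WT libraries and 11 between the miR-379KO libraries.

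The Adamts genes leaned one way without passing the test. All 13 tested had a log2 fold change below 0, with a median of −0.48, compared to −0.08 for 12 Mmp, 0.17 for 3 Timp and −0.01 for all genes. Adamts1 had −0.75 ± 0.32 (edgeR unadjusted p-value 0.0563), Adamts12 −0.65 ± 0.30, Adamts4 −0.89 ± 0.47 and Adamts5 −0.34 ± 0.20. The same 13 were below 0 with RLE factors, with TMM factors from genes seen in total RNA and with an offset for GC content and length. Without WT replicate A, however, 7 of 13 were below 0, so that the lean of the family rested in part on that library. Groups did not overlap for 5 members, Timp1 higher and Adamts1, Adamts5, Adamts12 and Adamts16 lower in miR-379KO, or 1 higher against 9.89% of all genes and 4 lower against 9.07%, 5 of 28 against 19% in all.

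Summed over a family, Timp RNA was at 739 and 641 RPKM in WT against 869 and 774 in miR-379KO. Mmp RNA was at 622 and 352 RPKM in WT against 471 and 493 in miR-379KO. Adamts RNA was at 127 and 92.7 RPKM in WT against 81.2 and 60.4 in miR-379KO. The genotypes did not overlap for the Timp and Adamts sums and overlapped for the Mmp sum. With 2 libraries against 2 an exact two-sided permutation test cannot go below 0.333, so no test of these sums was made. The ratio of summed Timp to summed Mmp RNA was 1.19 and 1.82 in WT against 1.85 and 1.57 in miR-379KO, and these values overlapped between the genotypes.

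**Figure D2:**
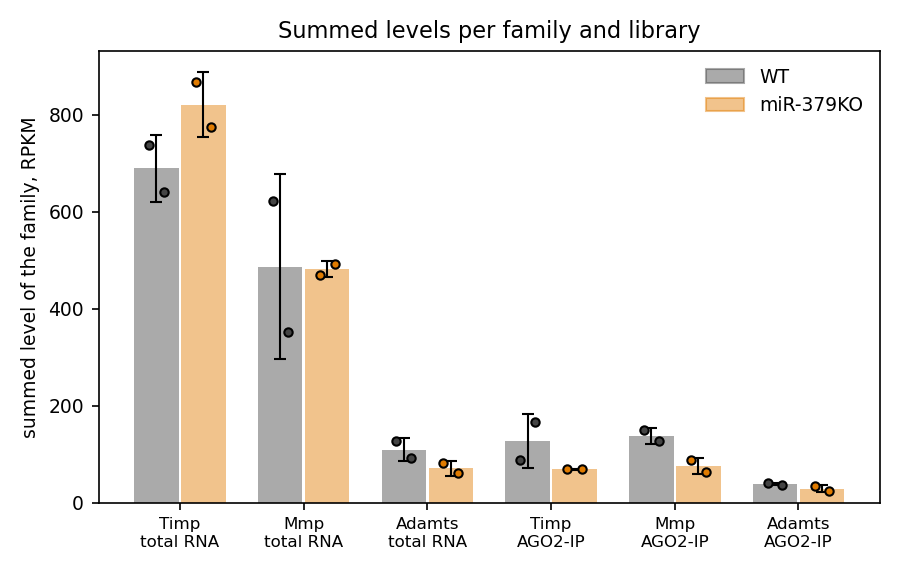
Summed level of the 4 Timp, 23 Mmp and 19 Adamts genes in RPKM, with bars for the mean of 2 libraries, error bars for the SD and points for single libraries. In total RNA the mean was 690.0 ± 69.1 RPKM for Timp in WT and 822 ± 66.6 in miR-379KO, 487 ± 191 and 482 ± 16.1 for Mmp, and 109.8 ± 24.1 and 70.8 ± 14.7 for Adamts.

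In AGO2-IP several expressed proteases and Timp1 were lower in miR-379KO than in WT, and the members that were higher had little or no total RNA. Mmp2, Mmp11, Mmp14, Mmp23, Adamts4, Adamts12 and Timp1 fell, by 0.86 to 1.28 on the log2 scale. The 14 that rose were 9 Mmp and 5 Adamts genes, led by Mmp27, Mmp3 and Mmp7, and no Timp was among them. By edgeR's quasi-likelihood test 21 of the 41 members tested were past the adjusted threshold, 14 higher and 7 lower. Among all 13505 genes 30.9% passed, 21.4% higher and 9.52% lower. DESeq2 called 8 members, all lower, and gave an adjusted p-value for 14 members only. With edgeR 28 members had an unadjusted p-value under 0.05 (42.5% of all genes), and the study's cutoff was met by 19 higher and 9 lower (26.1 and 13.3%, 39.4% of all genes in either direction). Groups did not overlap for 21 of the 41 in the higher direction and 10 in the lower, against 36.1 and 32.2% of all genes, or 68.4% in either direction.

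The counts are read here beside all genes that were, or were not, tested in total RNA, without further matching for level. Of the 27 members also tested in total RNA 4 rose (14.8%) and 7 fell (25.9%), compared to 7.80% and 11.6% of 10975 such genes, and their median log2 fold change was −0.35 against −0.18. Of the 14 members too low to be tested in total RNA 10 rose (71.4%) and 0 fell, compared to 80.3% and 0.514% of 2530 such genes, and their median was 1.59 against 1.81. The filter asks for enough counts in 2 libraries, so a gene this low can enter the AGO2-IP test through the miR-379KO libraries alone and is then close to bound to be higher there. These shares cover only genes that entered the test, and they are descriptions with no support for a rise of the members.

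The genes that fell are given in CPM of the AGO2-IP libraries. Timp1 was at 37.0 and 74.7 CPM in WT against 21.6 and 37.1 in miR-379KO, and it was the only inhibitor called. Its log2 fold change was −0.93 ± 0.33 (SE, edgeR adjusted p-value 0.0480), although miR-379KO B reached the level of WT A, and the call was lost in 7 of 14 alternative settings, among them without WT B, without miR-379KO A, with TMM factors from genes seen in total RNA and with an offset for GC and length. Timp2 was at 140.2 and 174 CPM in WT against 120.5 and 77.2 in miR-379KO, with a log2 fold change of −0.67 ± 0.29 that did not pass (edgeR adjusted p-value 0.0783). Timp3 was at 32.5 and 162 CPM in WT against 51.9 and 26.8 in miR-379KO, with −1.30 ± 1.07 (edgeR adjusted p-value 0.461), and its WT B stood far above the other 3 libraries.

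Among the proteases that fell, Mmp2 was at 266 and 171 CPM in WT against 131 and 83.4 in miR-379KO. Its log2 fold change was −1.02 ± 0.31 (edgeR adjusted p-value 0.0149). Mmp14, the activator of pro-MMP2, was at 167 and 209 CPM in WT against 102 and 74.0 in miR-379KO, with −1.10 ± 0.28 (edgeR adjusted p-value 0.00625). Both WT values of each gene lay above both miR-379KO values. Each call was kept in 2 of the 4 fits that left out 1 AGO2-IP library, as that of Mmp2 was lost without WT A and without miR-379KO B, and that of Mmp14 without WT B and without miR-379KO B. Both were also lost when the replicate block was joined to the offset. Mmp11 was at 12.9 and 11.3 CPM in WT against 5.75 and 4.73 in miR-379KO, with −1.21 ± 0.25 (edgeR adjusted p-value 0.00136). Mmp23, which shares 72 exon bases with Mib2 on the same strand, was at 8.92 and 6.48 CPM in WT against 4.34 and 2.43 in miR-379KO, with −1.18 ± 0.30 (edgeR adjusted p-value 0.00601). Groups did not overlap for either gene. The aggrecanase Adamts4 was at 10.5 and 9.25 CPM in WT against 5.28 and 2.81 in miR-379KO, and it had the strongest fall of the 7, −1.28 ± 0.28 (edgeR adjusted p-value 0.00234). Adamts12 was at 32.5 and 47.9 CPM in WT against 25.1 and 18.9 in miR-379KO, with −0.86 ± 0.25 (edgeR adjusted p-value 0.0122).

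Other expressed proteases did not pass. Adamts1, the highest Adamts gene, was at 94.2 and 73.9 CPM in WT against 72.4 and 28.9 in miR-379KO, with −0.73 ± 0.35 (edgeR adjusted p-value 0.127). Adamts5, the other aggrecanase, was at 24.6 and 18.0 CPM in WT against 26.4 and 15.5 in miR-379KO, with −0.03 ± 0.26, and its groups overlapped. Adamts6 was at 40.9 and 42.0 CPM in WT against 28.7 and 31.3 in miR-379KO, and Mmp17 at 9.31 and 7.63 in WT against 6.34 and 4.73 in miR-379KO. Both had no overlap between groups and log2 fold changes of −0.46 and −0.61. Adamts9 (3.73 and 1.73 CPM in WT, 4.22 and 5.49 in miR-379KO) and Mmp16 (3.82 and 3.47 in WT, 5.87 and 5.37 in miR-379KO) were higher in both miR-379KO libraries, with 0.80 ± 0.34 and 0.62 ± 0.28 (edgeR adjusted p-values 0.0799 and 0.0997). Adamts2, Adamts10, Adamts14, Mmp15 and Mmp19 were at 2.17 to 9.02 CPM in all AGO2-IP libraries, with log2 fold changes between −0.43 and 0.31 and overlapping groups. Adamts2 was at 3.92, 8.44, 4.46 and 4.60 CPM in WT A, WT B, miR-379KO A and miR-379KO B, and Adamts10 at 9.02, 6.59, 7.27 and 4.98. Adamts14 was at 6.37, 8.09, 4.58 and 7.28 CPM in the same order, Mmp15 at 4.22, 2.78, 2.82 and 2.81, and Mmp19 at 2.26, 2.78, 3.99 and 2.17.

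**Figure D3:**
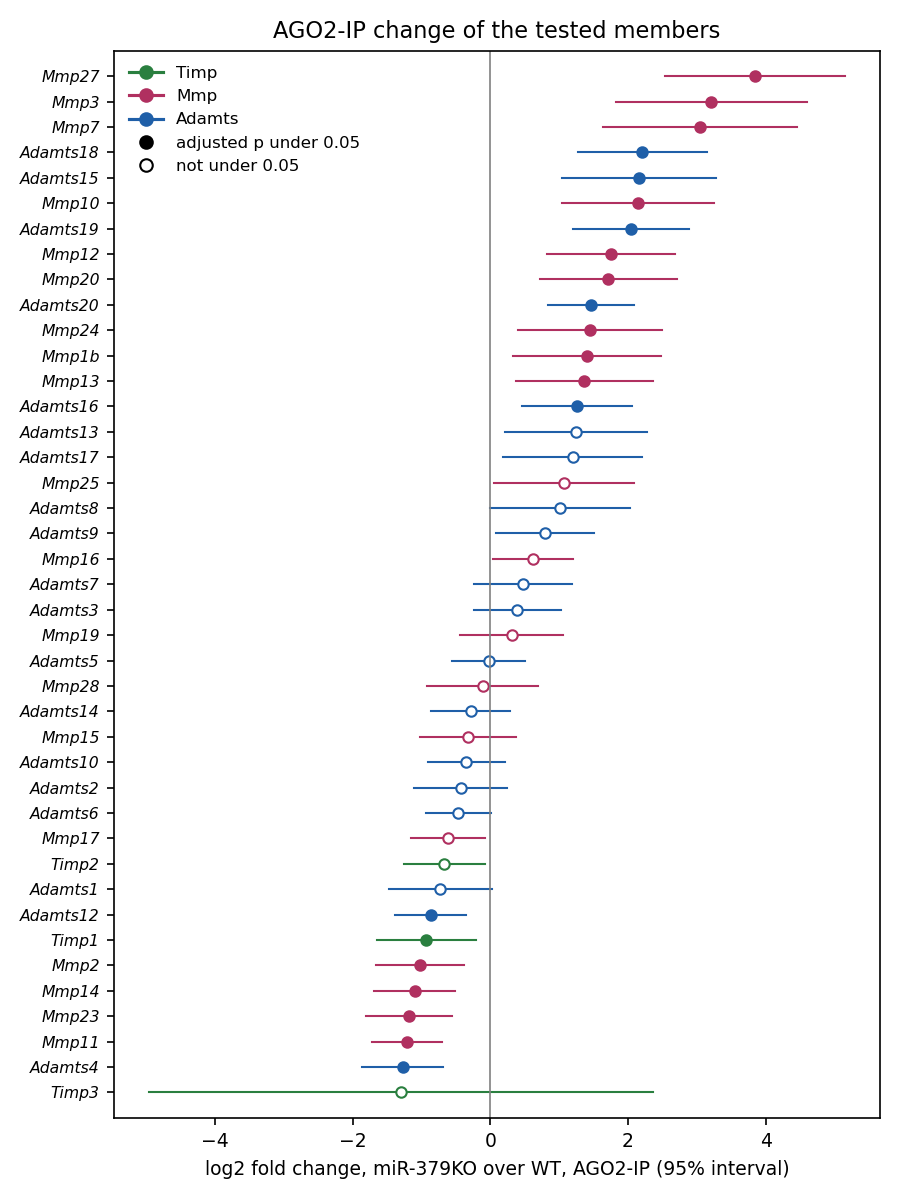
Log2 fold change of miR-379KO over WT in AGO2-IP for the 41 members tested, with 95% intervals and filled points where the adjusted p-value was under 0.05. The 7 called lower are expressed genes such as Mmp2 and Mmp14, the 14 called higher are led by Mmp27 at 3.84, and Timp3 has the widest interval.

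The genes that rose rested on few counts, 0 to 26 per WT library (median 5) and 7 to 58 per miR-379KO library (median 15), and 13 of the 14 were under 50 counts in every AGO2-IP library. Many lie together. The Mmp cluster on chr9:7272514-7699585 held 10 members, among them collagenases, stromelysins and the macrophage elastase, and no library of total RNA held more than 19 counts of any of the 10. The 8 of them that entered the AGO2-IP test were called higher, beside the 80.3% given above for tested genes too low for the total RNA test, and the same limit of the filter holds for them. With an offset for GC content and length 4 of the 8, Mmp12, Mmp13, Mmp1b and Mmp20, lost the call. Mmp27 had 1 and 1 counts in WT against 12 and 16 in miR-379KO AGO2-IP, a ratio of summed scaled counts of 16.0 with a 95% counting interval of 4.05 to 139. Mmp3, or stromelysin 1, had 2 and 0 counts in WT against 9 and 9 in miR-379KO, a ratio of 10.3 (2.47 to 91.7). Mmp7, or matrilysin, had 2 and 0 counts in WT against 9 and 7 in miR-379KO, a ratio of 9.17 (2.16 to 82.2). The edgeR adjusted p-values were 0.000322, 0.00162 and 0.00244, and the fitted log2 fold changes of these 3 genes depend on the prior count.

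The other cluster genes had more counts in WT. Mmp10, or stromelysin 2, had 2 and 3 counts in WT against 10 and 10 in miR-379KO, with a log2 fold change of 2.15 ± 0.54. Mmp12, the macrophage elastase, had 10 and 5 counts in WT against 21 and 23 in miR-379KO, with 1.75 ± 0.45. Mmp13, or collagenase 3, had 5 and 10 counts in WT against 16 and 18 in miR-379KO, with 1.36 ± 0.48. In each of them both miR-379KO values lay above both WT values. Mmp20, an enzyme of developing tooth enamel, had 6 and 4 counts in WT against 14 and 15 in miR-379KO, with 1.72 ± 0.48 and 0 counts in total RNA. Mmp1b had 3 and 6 counts in WT against 14 and 7 in miR-379KO, with 1.40 ± 0.52. It is related to Mmp1a, and how well reads of the 2 genes can be told apart was not tested. The edgeR adjusted p-values of these 5 genes ran from 0.00520 for Mmp10 to 0.0440 for Mmp1b.

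Outside the cluster the risers were Mmp24 and 5 Adamts genes. Mmp24, a membrane-anchored member, had 8 and 2 counts in WT against 12 and 12 in miR-379KO, with 1.45 ± 0.51 (edgeR adjusted p-value 0.0330). Adamts15 had 6 and 1 counts in WT against 13 and 15 in miR-379KO, with 2.17 ± 0.54 (edgeR adjusted p-value 0.00505). Both carry the seed match printed above. Adamts16 had 16 and 11 counts in WT against 23 and 33 in miR-379KO, with 1.26 ± 0.38 (edgeR adjusted p-value 0.0164), the opposite direction to its total RNA. Adamts18 had 7 and 5 counts in WT against 27 and 22 in miR-379KO, with 2.21 ± 0.45 (edgeR adjusted p-value 0.00135). Adamts19 had 13 and 5 counts in WT against 35 and 30 in miR-379KO, with 2.05 ± 0.41 (edgeR adjusted p-value 0.00109). Adamts20 had 20 and 26 counts in WT against 58 and 53 in miR-379KO, with 1.46 ± 0.31 (edgeR adjusted p-value 0.00154). These last 3 genes lost their call in 1 of 12 alternative settings, the fit of all 8 libraries, which called 0 members higher. Mmp1b lost its call in 9 of 12, Mmp13 in 7, Mmp20 and Mmp24 in 6 and Mmp10 in 5. Mmp12 lost it in 4 and Adamts15 and Adamts16 in 3. Of the settings that gave an adjusted p-value, Mmp27 lost the call in 1 of 11, Mmp3 in 2 of 10 and Mmp7 in 1 of 8. Mmp27 was tested in only 3 of the fits that left out 1 AGO2-IP library, Mmp3 in 2 and Mmp7 in 0. Among those that fell, Mmp11 lost it in 1 of 14, with a minimum mean of 50 counts. Mmp2 lost it in 5 of 14, Mmp14 and Adamts12 in 4 of 14 and Adamts4 in 3 of 14. Mmp23 lost it in 3 of 13, among them the fit with an offset for GC content and length.

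A rate measured in the same libraries moved with these results. The 5191 protein-coding genes with 0 counts in every total RNA library, members left out, had 1.35 (A) and 0.913 (B) counts per kilobase of exon in the WT AGO2-IP libraries against 3.08 (A) and 3.52 (B) in miR-379KO, 2.28 to 3.85 times as many between the genotypes. The strand-specific gene count found no match for 46.6% (WT A) and 49.7% (WT B) of the uniquely placed AGO2-IP reads. That share was 73.4% for miR-379KO A and 76.4% for miR-379KO B. Whether these reads lay between genes, in introns or on the opposite strand was not tested. Divided by this silent-gene rate of their own library, the 14 genes that rose were at 0 to 4.09 times the rate in WT (median 1.33) and 0.694 to 2.62 times in miR-379KO (median 1.66). The 7 genes that fell were at 12.6 to 795 times the rate in WT and 0.991 to 118 times in miR-379KO. Since the rate was higher in both miR-379KO libraries, the division moves every gene down there alike. Leukocyte, endothelial and tubule markers, lists of 5 genes each, were higher in miR-379KO AGO2-IP too, and podocyte markers overlapped, at 24.3 to 70.3 CPM in WT and 29.6 to 56.8 in miR-379KO. Leukocyte markers summed to 2.43 to 4.22 CPM in WT and 8.33 to 12.6 in miR-379KO, with 0 and 2 of 5 over 1 CPM in every library, endothelial markers to 2.31 to 4.12 and 6.69 to 8.18 CPM, and tubule markers to 5.39 to 6.71 and 14.7 to 19.8 CPM. In total RNA leukocyte markers summed to 0.656 to 1.53 CPM, with 1 of 5 at 0 in WT and 2 of 5 in miR-379KO. Mesangial markers summed to 999.9 to 1279 CPM in WT and 482 to 791 in miR-379KO AGO2-IP, most of it from Acta2 and Tagln, whereas the marker Itga8 was at 1.57 and 1.85 CPM in WT against 3.75 and 4.60 in miR-379KO. The part of the rate and of these markers in the result was not tested.

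**Figure D4:**
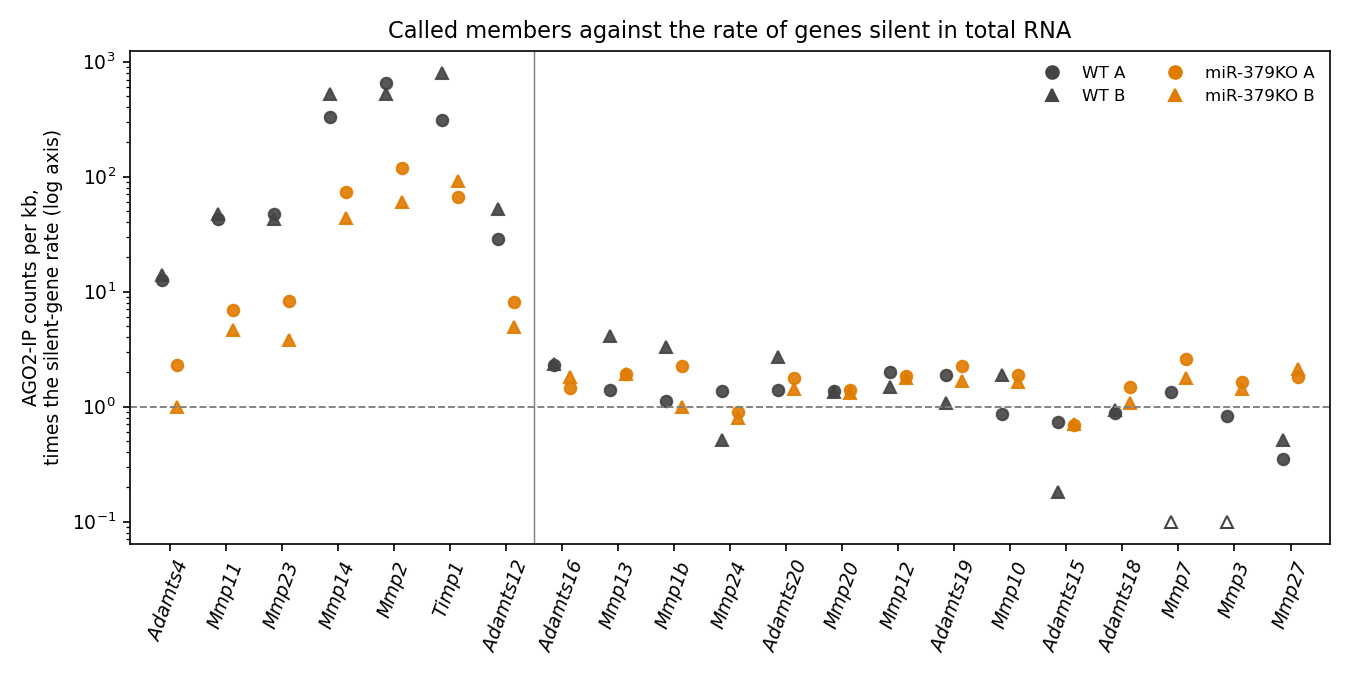
AGO2-IP counts per kilobase of the 21 called members, divided by the rate of silent genes in the same library, on a log axis, with open points for 0 counts and the dashed line at the rate itself. Left of the vertical line the 7 members that fell reach 12.6 to 795 in WT, and right of it the 14 that rose stay at 0 to 4.09 in WT and 0.694 to 2.62 in miR-379KO.

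Single libraries and the filter set the number of calls. Without WT B 10 members were called and without miR-379KO B 5, and with a minimum mean of 50 counts 0 of 15 were called, 6 of them at an unadjusted p-value under 0.05 and 5 lower at the study's cutoff. With TMM factors from genes seen in total RNA (median of all genes 0.16 in place of −0.01) there were 18 members higher and 6 lower, and 3348 of all genes higher and 572 lower in place of 2887 and 1286.

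The other members with a seed match were not called in AGO2-IP. Mmp17 had −0.61 ± 0.26 (edgeR adjusted p-value 0.0753) and Mmp28, a secreted member at 18 and 23 counts in WT against 16 and 17 in miR-379KO, had −0.11 ± 0.39. In total RNA the 4 lay at −0.36 (Adamts15), 0.22 (Mmp17), 0.66 (Mmp24) and −0.25 (Mmp28), and none passed. They thus shared no direction in either assay. Of all 615 tested genes with a seed match 28.5% were called in AGO2-IP, 21% higher and 7.48% lower, against the 30.9% of all genes given above.

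Whether the AGO2-IP change of a member differed from its total RNA change was asked as an interaction, fitted on the 8 libraries together. No member passed, 0 of 45 against 0 of 17429 genes (0%), with the lowest edgeR adjusted p-value of a member at 0.235. At an unadjusted p-value under 0.05 there were 11 members, against 15.7% of all genes. They were 7 lower and 4 higher. The study's cutoff adds nothing here, as the same 2733 of all genes met both rules. Of all genes 10.9% met them in the lower and 4.79% in the higher direction. DESeq2 called 1 member, Adamts16, higher in AGO2-IP relative to total RNA. With a block for each culture, a fit added after seeing the data, edgeR called 7 members among 1108 genes. Adamts16 was higher and Mmp2, Mmp11, Mmp17, Mmp23, Timp1 and Timp2 were lower. That fit takes same-letter libraries of a genotype as a single culture, which the labels do not state.

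The 7 lower were Timp1, Timp2, Mmp2, Mmp11, Mmp14, Mmp17 and Mmp23, all of them at 10 CPM or more in total RNA. Timp1, at 0.41 in total RNA and −0.93 in AGO2-IP, had an interaction of −1.55 ± 0.49 on the log2 scale (edgeR unadjusted p-value 0.00609). Mmp23, at 0.31 and −1.18, had −1.69 ± 0.44 (edgeR unadjusted p-value 0.00118). Mmp2, at 0.15 and −1.02, had −1.43 ± 0.55, and Timp2, at 0.17 and −0.67, had −1.09 ± 0.50. No Adamts gene was among the 7, and Adamts4 and Adamts12, which lay below 0 in both assays, had −0.65 ± 0.58 and −0.45 ± 0.41. The 4 higher were Adamts16 (3.14 ± 0.86), Adamts20, Mmp13 and Mmp27. With RLE factors (median of all genes 0.28 in place of 0.01) 4 members were lower and 7 higher, and with TMM factors from genes seen in total RNA (median 0.34) 3 were lower and 7 higher. Without WT total RNA B, 3 members, Mmp11, Mmp23 and Timp1, passed the adjusted threshold, and without WT total RNA A 2 members, Adamts16 and Mmp27, did.

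**Figure D5:**
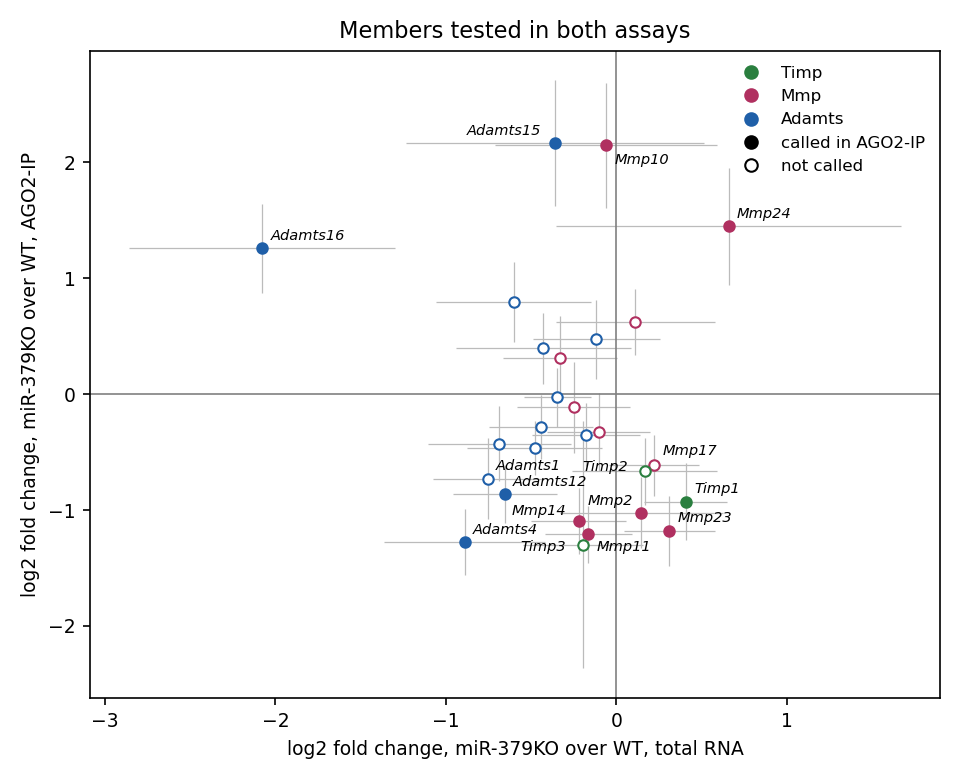
Log2 fold change of miR-379KO over WT in AGO2-IP (vertical) against total RNA (horizontal) for the 27 members tested in both, with SE bars and filled points where called in AGO2-IP. Timp1, Mmp2 and Mmp23 lie right of 0 in total RNA and below −0.9 in AGO2-IP, Adamts4 and Adamts12 lie low in both, and Adamts16 is at −2.08 in total RNA and 1.26 in AGO2-IP.

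To see which members were higher in AGO2-IP than in total RNA, the assays of a genotype were compared on the 8 libraries used above. The library protocol changed with the assay, so recovery with AGO2 cannot be told apart from the protocol here. These comparisons share libraries with those between genotypes. In WT 26 of 45 members were at least 2-fold higher in AGO2-IP and 0 lower (edgeR adjusted p-value under 0.05), against 43.1% of all genes, 35.7% higher and 7.33% lower. In miR-379KO 30 were higher and 3 lower, against 61%, 41.6% higher and 19.3% lower. Of the higher members 24 were the same in both genotypes. Many of them have next to no total RNA, and no fold is given for these.

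Among the 28 members tested in total RNA 12 were higher in WT, 8 Adamts and 4 Mmp, compared to 12.3% of all such genes, and no Timp was. Adamts6 had a log2 fold of 2.40 ± 0.30 (edgeR adjusted p-value 1.18e-05), Adamts10 1.72 ± 0.30, Adamts12 1.69 ± 0.29 and Adamts14 1.47 ± 0.30. Mmp2 was just past the 2-fold limit at 1.01 ± 0.39 (edgeR adjusted p-value 0.0407). Of the inhibitors in WT, Timp2 had −0.12, Timp1 0.07 and Timp3 0.43 ± 0.83, and Timp3 went to −1.45 without WT AGO2-IP B (edgeR adjusted p-value 0.0313). In miR-379KO Adamts6 was again high at 2.17 ± 0.30, whereas Timp1 (−1.48 ± 0.35), Mmp23 (−1.40 ± 0.32) and Timp2 (−1.21 ± 0.36) were the 3 members called at least 2-fold below total RNA (edgeR adjusted p-values 0.00142, 0.000915 and 0.00632). An offset for GC content and length shifted the all-gene median from 0.49 to −0.53 in WT and from 0.47 to −0.88 in miR-379KO, and it left 16 members higher and 1 lower in WT, with 4504 genes higher and 6247 lower in place of 6230 and 1277. With it the WT calls of Adamts6, Adamts12, Adamts14 and Mmp2 were lost, while Adamts10 kept its call. Adamts6 went to −0.14 and Adamts12 to −0.29 in miR-379KO.

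Genes that act with the members were looked at as lists. The lists were activators and cell surface regulators, other protease inhibitors, ADAM proteases with ADAMTS-like genes, and substrates. In total RNA 0 passed the adjusted threshold in any list, of 14, 11, 12 and 17 tested, and the medians lay at −0.08, 0.24, −0.21 and −0.19. The study's cutoff was met by Tfpi, a Kunitz-type inhibitor of coagulation proteases (0.81, edgeR unadjusted p-value 0.0144), and Col3a1, a fibrillar collagen chain (−0.66, edgeR unadjusted p-value 0.0401).

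In AGO2-IP the activators and the substrates had more members that fell than rose. Beside the counts below, 9.52% of all genes fell and 21.4% rose, and 11.6% and 7.80% of those also tested in total RNA. Of 15 activators and regulators 8 fell and 1 rose, with a median of −0.79 against −0.01 for all genes and −0.18 for those tested in total RNA. Urokinase (Plau), which turns plasminogen into the Mmp activator plasmin, had −1.39, its receptor Plaur −0.93, Furin, which cuts the propeptide of membrane-anchored Mmp enzymes, −1.03, and Lrp1, which takes up Mmp and Timp complexes, −1.11. The riser was Plg itself, the liver-made plasminogen. Of 20 substrates 12 fell and 3 rose, with a median of −0.85. Among them Col4a1 of the basement membrane had −1.01, fibronectin (Fn1) −1.24, Col1a1 −1.25 and perlecan (Hspg2) −1.42, while Acan, Dcn and Eln rose. Of 11 other inhibitors 4 fell, Serpinf1 (−1.63), Serpinh1, Sparc and Pcolce, and 3 rose, A2m, Tfpi and Spock1, with a median of −0.73. Several genes of that list are collagen-handling proteins rather than inhibitors, namely the collagen chaperone Serpinh1, Sparc and the procollagen proteinase enhancer Pcolce. Of 14 ADAM and ADAMTS-like genes 4 fell, Adam9, Adam15, Adam19 and Adamtsl4, and 3 rose, Adam22, Adam33 and Adamtsl3, with a median of −0.19.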

How the data were processed

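The deposited values were counts, which the authors gave as whole reads per gene, not normalized, in 1 list per library. Per the authors' methods, total RNA libraries came from a stranded mRNA kit. For AGO2-IP, UV cross-linked cells were sonicated, and the RNA bound to the beads was extracted. The ligation that joins a microRNA to its target was left out for these samples. The paper names their sequencing small RNA-seq. Reads were aligned with TopHat to mm10 and counted on RefSeq genes with strand by HTSeq 0.6.0 (submitters' processing notes), with only uniquely placed reads kept, so near-identical copies are uncertain. Depth is given in the report. The intervals of the ratios of summed scaled counts and the bounds for genes without counts cover counting error only. The intervals of edgeR's fold changes come from the SE of the fit and include the spread between replicates.

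Coordinates, exon lengths and 3′-UTRs came from RefSeq on GRCm38.p6, in which 98.7% of entries and all 46 members matched. Tests used edgeR 4.0.16 (R 4.3.3), TMM scaling, filterByExpr (minimum count 10), the robust quasi-likelihood test and adjustment over all genes tested. Genotypes were compared on the 4 libraries of an assay. The interaction and AGO2-IP against total RNA used all 8, the latter with at least 2-fold. A ± without other mention is an SE for a log2 fold change and an SD (n = 2) for a level. Scripts were tested on simulated data. Members and lists were chosen with earlier results of these data known. Named were each tested Timp, each Mmp and Adamts at 10 CPM or more in total RNA of either genotype and each member called. Mmp28 and genes of the related lists were named for their values or sites. Same-letter libraries of the genotypes correlated at −0.02 (total RNA) and 0.07 (AGO2-IP) in their deviations across genes, so the letter was taken as a name only. Replicates did not agree within sampling noise. Alternatives were DESeq2 1.42.0, other scaling factors, other filters, a GC content and length offset (lowess span 0.3), blocks and omission of 1 library.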

Additional observations from a re-analysis of the deposited data

How the results depend on the processing

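The number of members called depended on the settings. In AGO2-IP, 21 members between genotypes became 8 with DESeq2, 0 with a minimum mean of 50 counts, 3 with all 8 libraries in one fit and 5 to 20 with 1 library left out, where the lone sample is assumed to vary like the others. Over all genes 4173 calls became 1399, 274 and 686 in these first 3 settings. They became 918 to 3337 with 1 library left out. For the interaction, 0 members became 1 with DESeq2, 3 with the GC and length offset, 5 with that offset and the replicate block, and 0 to 3 with 1 library left out (2 without WT total RNA A and 3 without WT total RNA B). For AGO2-IP against total RNA in WT, 26 became 10 with a minimum mean of 50 counts, 17 with the offset, 16 with the offset and the replicate block, and 16 to 27 with 1 library left out. In miR-379KO, 33 became 10 with a minimum mean of 50 counts and 27 to 33 with 1 library left out. Over all genes the interaction went from 0 calls to 211 with DESeq2, 1276 with the offset, 2103 with the offset and the replicate block, 1108 with the culture block below and 0 to 1547 with 1 library left out. A minimum mean of 50 counts left 1829 of 7507 calls in WT and 3380 of 10627 in miR-379KO, where no filter gave 16163. The replicate block alone gave 20, 0, 26 and 33 calls. A block for each culture gave 7 for the interaction, Adamts16 higher and Mmp2, Mmp11, Mmp17, Mmp23, Timp1 and Timp2 lower. It was chosen after seeing the data because same-letter libraries of a genotype correlated at 0.31 and 0.27 across assays. Same-letter libraries of different genotypes correlated at 0.22 and −0.10 across assays, and the labels do not link a letter to a culture. TMM factors without Rn45s and Lars2 and the silent-gene rate were also chosen after seeing the data. In total RNA no setting gave a call.

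A value that was called before or after changed sign in AGO2-IP against total RNA only. In WT, Mmp16 went from 1.06 to −0.13 with the offset and −0.087 with the offset and the replicate block, and Timp3 from 0.43 to −1.45 without WT AGO2-IP B, with a range of −1.45 to 1.05 over the omissions of 1 library. In miR-379KO, the same 2 settings gave −0.29 and −0.29 for Adamts12, −1.90 and −1.91 for Adamts5, −0.14 and −0.14 for Adamts6 and −0.44 and −0.46 for Mmp16. The causes were not tested. Of 430 values of single members in AGO2-IP between genotypes, 321 kept direction and call, 77 lost the call, 19 gained one and 13 changed sign uncalled. In total RNA 287 of 308 kept both and 21 changed sign uncalled. DESeq2 gave no adjusted p-value to the 14 members that rose, so their calls have no second tool, and with 0 to 58 counts per library they are at the edge of what this depth can show.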
